A study of Mus musculus with 12 samples.

Results

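Cytosolic ribosomal proteins are the protein subunits of the ribosomes that translate mRNA in the cytosol. Their genes were taken here as all protein-coding genes whose mouse symbol begins with Rpl or Rps and a number, together with Rplp0, Rplp1, Rplp2 and Rpsa, and without the Rps6k kinases. The rule gave 92 of 48526 gene rows, 57 with a symbol of the large subunit and 35 with one of the small subunit. It also took in Rps19bp1, which binds Rps19 and is not a subunit, and 6 genes whose symbols mark them as pseudogenes although the annotation lists them as protein-coding. The rule uses symbols and no expression value, but the family was taken up with earlier results of these data known.

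Each ribosome needs 1 copy of nearly every one of these proteins, so cells make them in balanced amounts, and their short mRNAs are among the most abundant in growing cells. Most of these mRNAs begin with a C and a run of pyrimidines, the TOP motif, through which the kinase complex mTORC1 and the RNA-binding protein Larp1 set their translation and stability. The epithelium of the small intestine renews itself continuously from dividing crypt cells, which have a high demand for new ribosomes. Many ribosomal protein genes have processed pseudogene copies, and some carry small nucleolar RNAs in their introns.

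RNA was measured in epithelial cells from the proximal small intestine of 4 female mice aged 3 months, as the extraction protocol has it, while the sample titles speak of the whole intestine. In 2 mice a double knockout (DKO) of the acetyltransferase genes Kat2a and Kat2b had been induced with tamoxifen at 100 mg/kg on 4 days, and the 2 control mice received the solvent alone. Cells were taken 2 days after treatment. Each mouse gave an input library of total RNA and 2 pulldown libraries made with J2 and K1, antibodies that bind double-stranded RNA whatever its sequence, so the 12 libraries form 6 groups of 2. The cell type that drives the deletion and the alleles of the control mice are not given in the sources used here, and tamoxifen and genotype cannot be told apart.

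The sequence around the transcription start shows a feature that the choice by symbol did not use. RefSeq start sites (GRCm38.p6) were at hand for 66 of the 92 genes, with 78 windows from 10 bases before to 20 bases after a start. CTTTC, a pyrimidine run of the TOP type, stood on the transcribed strand in 20.5% of these windows and in 3.74% of the windows of the same length around all 32851 listed starts. CTTCC stood in 19.2% against 6.36%, and 34.6% held one or the other against 9.8% of all windows. The windows below belong to the genes that changed most in input RNA, as far as the table lists them, with CTTTC and CTTCC in capitals, written 5′ to 3′ on the strand of the gene.
Rpl12 (chr2:32961702-32961731, plus strand): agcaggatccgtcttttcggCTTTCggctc
Rpl36a (chrX:134585644-134585673, plus strand): cccaggcaccgcctataaaCTTCCgttgcg
Rps15a (chr7:118116128-118116157, minus strand): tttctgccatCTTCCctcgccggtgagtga
Rps18 (chr17:33955646-33955675, minus strand): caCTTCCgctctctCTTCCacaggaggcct
Rpl35a (chr16:33056472-33056501, plus strand): gcttgcCTTCCtCTTTCcgccatcttggcg
Rps4x (chrX:102189372-102189401, minus strand): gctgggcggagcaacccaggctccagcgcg
Rpl5 (chr5:107900518-107900547, plus strand): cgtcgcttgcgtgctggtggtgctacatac
Rps27l (chr9:66946076-66946105, plus strand): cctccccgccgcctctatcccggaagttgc
Rps27l, other start (chr9:66946403-66946432, plus strand): gggcttcagggtcactaacgggcctcgcag

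Those of Rpl12, Rpl36a, Rps15a, Rps18 and Rpl35a hold a run, and those of Rps4x, Rpl5 and Rps27l hold neither. Rpl35a has 3 listed starts, of which the one shown holds both runs and the others hold neither. On the opposite strand CTTTC stood in 3.85% of the windows of these genes and in 3.65% of all windows, and CTTCC in 12.8% and 7.45%. In the 300 bases around the start, CCGGAAGT, a site of the ETS family that contains the reverse complement of CTTCC, was present on either strand in 15.4% of the windows of these genes and in 3.89% of all. TATAAA stood on the transcribed strand in 7.69% and 8.32%. A match describes these letters in these windows only, and the listed starts need not be the ones used in this tissue.

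The libraries differed in depth. Input libraries held 10307281 to 11474107 counts assigned to genes, control pulldowns 13308021 to 16139531 and DKO pulldowns 2220291 to 5826361. Reads that aligned to several places were 5.54% to 8.05% of the listed reads in input and control pulldowns, but 15.8% and 29.5% in DKO J2 and 25.9% and 46.7% in DKO K1. Replicates of DKO J2 had a Pearson correlation of log2 CPM (counts scaled to library size) of 0.850, against 0.983 or more in input, control J2 and control K1 and 0.909 in DKO K1. The targeted genes were lower in both DKO inputs, with Kat2b at 28.5 and 24.7 CPM in the controls beside 9.82 and 8.37 CPM, and Kat2a at 17.6 and 16.4 CPM beside 6.99 and 10.9 CPM. All 10 epithelial markers were detected, with a summed level of 7133 to 7325 CPM in control input and 6480 to 7837 CPM in DKO input.

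Together the 92 genes took 1.38% and 1.44% of the gene-assigned counts in the control inputs. In the DKO inputs they took 0.668% and 1.04%, both below both controls. The J2 libraries gave 0.984% and 1.02% in control and 0.284% and 0.749% in DKO. The K1 libraries gave 1.48% and 1.55% in control mice but 0.450% and 0.654% in DKO mice. For input, J2 and K1 alike both DKO values lay below both control values, and the DKO animal numbered 1 had the lower share each time.

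**Figure D1:**
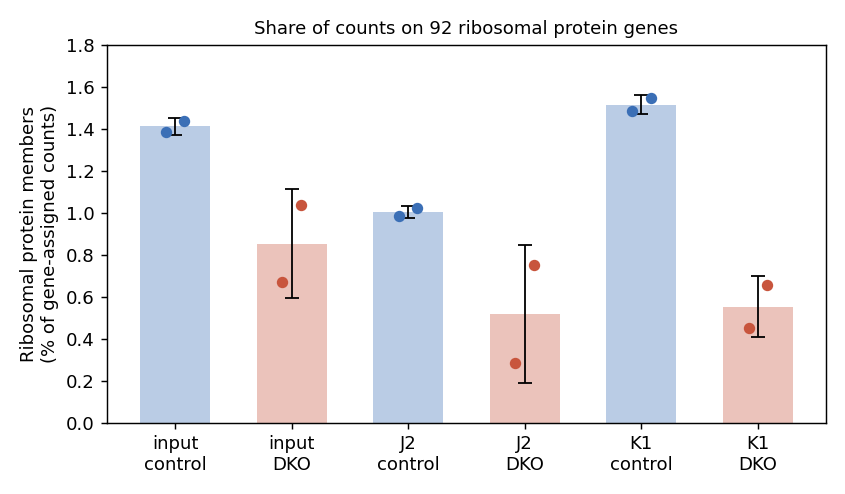
Share of the gene-assigned counts of each library that fell on the 92 ribosomal protein genes (percent, y axis) in 6 groups (x axis). Points are libraries, bars are group means and error bars are the SD of 2 libraries, and both DKO points lie below both control points for input, J2 and K1.

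Of the 92 genes, 82 had enough counts to be tested in input and in both comparisons of a pulldown with input, and 81 within J2 and within K1, where Rps27rt was left out. The 10 that were never tested were Rpl3l, Rpl10l, Rpl39l, Rpl24, Rpl9-ps1, Rpl9-ps6, Rpl10-ps3, Rpl36a-ps1, Rps12-ps3 and Rpl36-ps4. Rpl3l, Rpl10l and Rpl39l are paralogs known from muscle or testis, and they had at most 2 counts in any library. Rpl24 is a subunit of every large particle but was counted 4 to 10 times per input library. Its exons overlap those of another annotated gene, and reads in exons of 2 genes were not assigned to either. Rpl13a, which overlaps another gene as well, had 18 to 28 counts per input library and 0 to 2 in the DKO pulldowns, where no fold is given.

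Levels were compared between genes per kilobase of transcript. In control input the highest were Rpl41 with 547 ± 19.7 CPM per kilobase (SD, n = 2), Rps2 with 525 ± 20.9, Rps14 with 476 ± 36.0, Rps27 with 447 ± 61.0 and Rps15 with 407 ± 27.8. Rpl41 is the smallest protein of the large subunit, and Rps2 and Rps14 are core proteins of the small one. Rpl41 and Rps2, and likewise Rps14, Rps27 and Rps15, did not differ beyond the spread of the replicates around their neighbours. The lowest tested were Rpl13a with 1.72 ± 0.185, Rps27rt with 4.41 ± 0.834, Rpl22l1 with 5.05 ± 0.421, Rps19bp1 with 6.28 ± 0.375 and Rpl7l1 with 10.9 ± 0.427. Apart from Rpl13a these are paralogs or related genes, not the standard subunits. The lengths come from 1 principal transcript per gene, and for Rps15a that transcript is 5130 bases long.

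In input RNA the subunits fell together after deletion of Kat2a and Kat2b. By edgeR's quasi-likelihood test with Benjamini-Hochberg adjustment over all genes, 48 of the 82 tested fell and 1 rose at an adjusted p below 0.05. Of all 15088 genes tested, 17.1% fell and 18.8% rose, or 35.9% in either direction. The median log2 fold change of the 82 was -0.58, with 78 below 0, beside -0.001 over all genes. Large-subunit genes had a median of -0.65 with 30 of 48 lower, and small-subunit genes -0.55 with 18 of 34 lower. The range over the members ran from -1.11 to 0.63.

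Rpl3, a core protein near the peptidyl transferase centre (ENSMUSG00000060036.13, chromosome 15), was at 262 and 249 CPM in control input and at 93.1 and 137 CPM in DKO input. Both DKO values lay below both controls, with a log2 fold change of -1.11 ± 0.19 (SE) and an adjusted p of 0.00396. Rpl12, part of the stalk base where translation factors dock, was at 184 and 172 CPM in control and 66.4 and 104 CPM in DKO. Its log2 fold change was -1.02 ± 0.21 (adjusted p 0.00783). Rps4x, the X-linked copy of a small-subunit protein, was at 145 and 160.1 CPM in control and 57.8 and 88.1 CPM in DKO. Rpl36a was at 14.9 and 14.8 CPM in control and 5.58 and 8.66 CPM in DKO. These 2 X-linked genes did not overlap between the genotypes either, and changed by -1.02 ± 0.20 and -1.01 ± 0.23 (adjusted p 0.00682 and 0.0134).

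Rpl5 and Rpl11 carry 5S ribosomal RNA into the large subunit and, when free, bind Mdm2, the ligase that targets p53. Rpl5 was at 142 and 150.1 CPM in control input and at 59.2 and 86.7 CPM in DKO (log2 -0.96 ± 0.19, adjusted p 0.00653). Rpl11 was at 50.6 and 46.4 CPM in control and 24.4 and 32.9 CPM in DKO (log2 -0.72 ± 0.16, adjusted p 0.0121). Both fell, with no overlap between genotypes. Rps15a, Rps18 and Rpl35a fell by 0.94, 0.92 and 0.92 on the log2 scale (adjusted p 0.00652, 0.00521 and 0.00718).

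The acidic stalk of the large subunit is formed by Rplp0, its anchor, and by Rplp1 and Rplp2, which bind elongation factors. Rplp0 was at 531 and 567 CPM in control input and at 288 and 372 CPM in DKO, and fell by 0.69 on the log2 scale (SE 0.16, adjusted p 0.0142). Rplp1 was at 174 and 182 CPM in control and 116 and 175 CPM in DKO, and Rplp2 at 123 and 123 CPM and 76.9 and 101 CPM. Neither passed the test (adjusted p 0.359 and 0.0624), with log2 fold changes of -0.25 and -0.43. For Rplp1 the higher DKO value lay between the control values.

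Among small-subunit proteins of known role, Rps3, which lines the mRNA entry channel, and Rps6, the substrate of the S6 kinases, both fell. Rps3 was at 216 and 234 CPM in control and 105 and 136 CPM in DKO (log2 -0.86 ± 0.16, adjusted p 0.00528). Rps6 was at 169.5 and 168 CPM in control and 84.4 and 118 CPM in DKO (log2 -0.70 ± 0.17, adjusted p 0.0171). Rps14 fell by 0.52 (adjusted p 0.0373). Rps19, the gene most often mutated in Diamond-Blackfan anaemia, was at 88.9 and 91.7 CPM in control and 52.9 and 77.6 CPM in DKO, which missed the threshold (log2 -0.43, adjusted p 0.108). Rpsa, also known as the laminin receptor precursor, was at -0.42 (adjusted p 0.0953), and Rps27a, which is made as a fusion with ubiquitin, at -0.35 (adjusted p 0.125). Of the remaining large-subunit genes of known role, Rpl22 and Rpl38 fell by 0.84 and 0.81 (adjusted p 0.0246 and 0.00564), while Rpl10 and Rpl23 were at -0.36 and -0.46 (adjusted p 0.0823 and 0.054).

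Rps27l was the only tested gene of the family that rose in DKO input. It is a paralog of Rps27 and is known as a transcriptional target of p53 (ENSMUSG00000036781.13, chromosome 9). Its levels were 17.6 and 21.3 CPM in control and 28.2 and 30.4 CPM in DKO, with both DKO values above both controls. The log2 fold change was 0.63 ± 0.15 (adjusted p 0.0136). Rps27 itself was at 139 and 169 CPM in control and 98.8 and 134 CPM in DKO (log2 -0.36, adjusted p 0.151). The other tested genes above 0 were Rpl7l1, a paralog of Rpl7, at 0.19, Rps19bp1 at 0.10 and the thinly counted Rpl13a at 0.02 (adjusted p 0.271, 0.776 and 0.964). The paralogs Rpl22l1 and Rpl36al were at -0.39 and -0.30 (adjusted p 0.304 and 0.19).

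**Figure D2:**
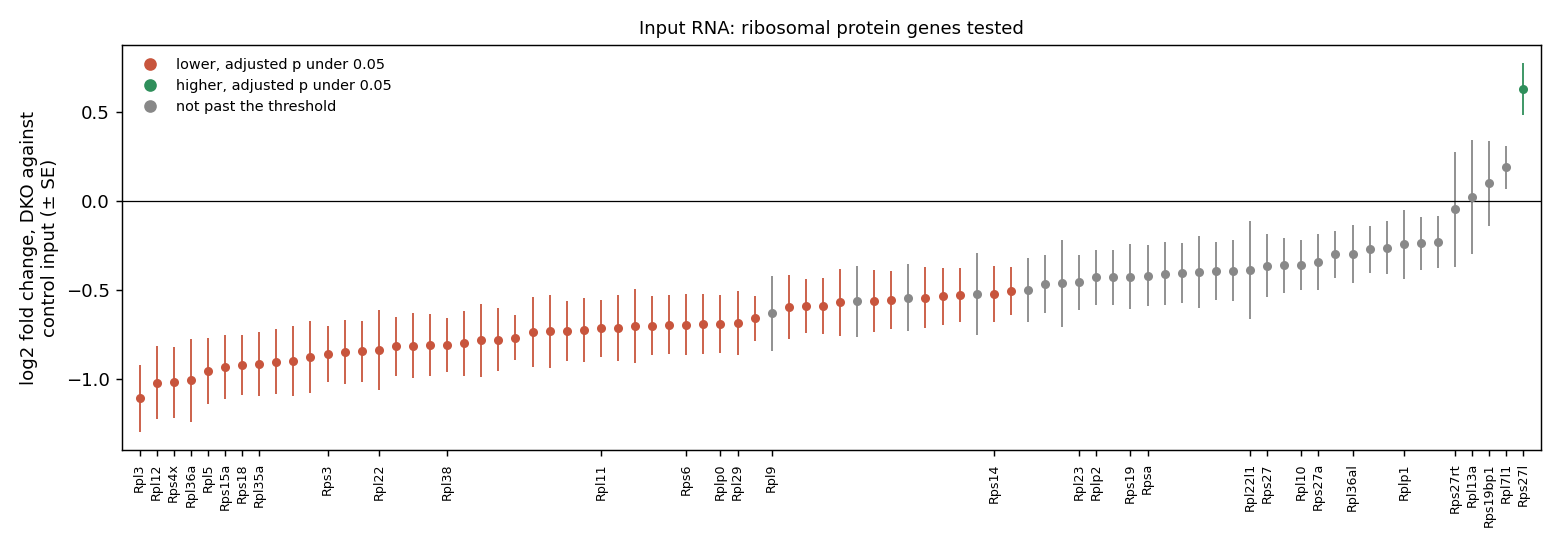
Log2 fold change of each of the 82 tested ribosomal protein genes in DKO against control input (y axis, bars are the standard error, 2 libraries per group), ordered along the x axis with some of the genes labelled. Orange points fell and the green point, Rps27l at 0.63, rose at an adjusted p below 0.05, while grey points missed it, and 78 of 82 lie below 0.

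The 2 DKO animals differed in how far these genes fell. The median log2 difference of the 82 genes from the mean of control input was -0.87 in DKO animal 1 and -0.42 in DKO animal 2, and 81 of the 82 were higher in animal 2 than in animal 1. With 1 animal left out the median of the DKO change ran from -0.84 to -0.39, beside -0.02 to 0.01 over all genes. Without DKO replicate 1 it was -0.39. A single fit of all 12 libraries, whose spread is estimated over all 6 groups, called 3.

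Other genes of the translation machinery were compared through lists. Of 77 tested mitochondrial ribosomal protein genes, which serve the separate ribosomes of mitochondria, 14 fell and 4 rose, with a median of -0.24. The share that fell, 18.2%, was near the 17.1% of all genes. Of 21 translation factors and further TOP mRNAs 8 (38.1%) fell, with a median of -0.22, and examples are Eif4b at -1.07, Eef1b2 at -0.61 and Eef2 at -0.59. Of 29 ribosome biogenesis genes, which process ribosomal RNA and assemble the subunits, Bop1 rose by 0.38 and Ubtf fell by 0.50, and the median was 0.13. Of 14 genes of the mTORC1 pathway Eif4ebp1, an inhibitor of cap-dependent translation, rose by 2.13, and Deptor, Larp4 and Larp1 fell by 2.41, 0.66 and 0.45, with a list median of -0.11 and 21.4% lower, beside 17.1% of all genes. Of components outside the naming rule, Rack1, a small-subunit scaffold, fell by 0.86 (adjusted p 0.00715), and Fau, made as a fusion with the small-subunit protein Rps30, fell by 0.48 (adjusted p 0.0245).

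Markers of dividing cells moved with the fall. Of 16 proliferation markers 14 (87.5%) fell in DKO input, beside 17.1% of all genes. Their summed level was 531 to 621 CPM in control and 176 to 228 CPM in DKO. Of 10 stem cell markers 7 fell, with sums of 676 to 681 CPM and 170.3 to 259 CPM. Leukocyte markers, of which 2 of 16 were at 0, summed to 89.0 to 106 CPM in control and 62.4 to 72.4 CPM in DKO. Of the 11 tested leukocyte markers 5 (45.5%) fell and 2 (18.2%) rose, beside 18.8% higher of all genes. The part of these cells in the result was not tested, and in bulk RNA fewer cells of a type and less RNA per cell cannot be told apart.

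Sequence features were set beside the change. Over the 82 genes the Spearman rank correlation of the input fold change was -0.118 with transcript length, -0.018 with GC content and -0.063 with the share of the transcript that has a near-identical copy, as descriptions over genes that share the same libraries. Genes that host a small nucleolar RNA had a median of -0.55 (30 genes, 16 lower) and the rest -0.67 (52 genes, 32 lower). CTTTC or CTTCC stood in the start window of 15 of the 36 genes that fell and have a window, and of 10 of the 25 that missed the threshold.

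Near-identical copies matter because a read that fits 2 places is not assigned to a gene. With 97% identity and 100 aligned bases as the minimum, 81 of the 92 genes had a copy elsewhere in the transcriptome, and the median share of a transcript covered was 67.4%. The 8 tested genes with no copy had a median input change of -0.54 and the 58 covered over more than 50% one of -0.65. Exons of 24 tested genes overlap another gene, which counting without strand cannot separate, and their median was -0.55 beside -0.59 for the others.

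Within the K1 libraries subunits of both kinds were lower in DKO. Of 81 tested genes 40 fell and none rose, beside 13.9% lower and 13.1% higher (27.1% in either direction) of all 12888 genes tested. No gene was called higher by edgeR or by DESeq2, and none was at an unadjusted p below 0.05 upwards, while 57 were downwards. The median was -1.02, with 78 of 81 below 0, beside -0.02 over all genes. Large-subunit genes had a median of -1.10 with 24 of 48 lower, and small-subunit genes -1.01 with 16 of 33 lower. Of the 48 genes that fell in input 30 also fell in K1, in libraries from the same animals. That is 62.5% of the first set, while 49.4% of all members tested fell in K1. It is 75.0% of the second set, while 58.5% of all members tested fell in input.

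Rpl5 led this comparison. It was at 717 and 779 CPM in control K1 and at 101 and 101 CPM in DKO K1, far apart and with no overlap (log2 -2.69 ± 0.32, adjusted p 0.0029). Rpl29, a small basic protein of the large subunit, was at 157 and 147 CPM in control and 24.4 and 27.6 CPM in DKO (log2 -2.36 ± 0.27, adjusted p 0.00273). Rpl9, which sits at the foot of the stalk, was at 346 and 353 CPM in control and 73.6 and 63.3 CPM in DKO (log2 -2.16 ± 0.28, adjusted p 0.00359). In each, both DKO libraries lay far below both control libraries.

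Rplp0 was at 802 and 847 CPM in control K1 and 196 and 156 CPM in DKO K1 (log2 -2.04 ± 0.32, adjusted p 0.00612). Rps10, a protein of the small-subunit beak, was at 194 and 214 CPM in control and 44.6 and 45.2 CPM in DKO (log2 -1.99 ± 0.26, adjusted p 0.00387). Rpl35a, Rps24 and Rpl37a fell by 1.77, 1.73 and 1.71 (adjusted p 0.00708, 0.0126 and 0.00599). Rps19 lay at the other end of the genes of known role, with 78.6 and 96.0 CPM in control and 69.8 and 75.0 CPM in DKO (log2 -0.07, adjusted p 0.861). The 3 genes above 0, picked out after their values were seen, were Rpl19 at 0.56, Rps27l at 0.41 and Rps29 at 0.08 (adjusted p 0.128, 0.643 and 0.838). Leaving out 1 animal at a time gave medians of -1.19 to -0.82, beside -0.09 to 0.01 over all genes. The number of calls fell or rose with the animal left out, over all genes too.

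Within the J2 libraries 5 of 81 genes fell and none rose, beside 6.17% lower and 6.04% higher (12.2% in either direction) of all 13181 genes tested, so the share of lower genes was that of the background. All 5 were among the 40 that fell in K1. The median was -0.55, with 61 of 81 below 0, beside 0.03 over all genes. Upwards no gene passed by edgeR or by DESeq2 and none had an unadjusted p below 0.05, while 27 had one downwards and DESeq2 called 15 lower.

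Rplp0 was at 727 and 729.9 CPM in control J2 and 131 and 103 CPM in DKO J2, without overlap (log2 -2.58 ± 0.48, adjusted p 0.0369). Rpl35a was at 22.0 and 23.0 CPM in control and 6.37 and 4.31 CPM in DKO (log2 -2.02 ± 0.40, adjusted p 0.0398). Rpl9, Rpl10 and Rps4x fell by 1.89, 1.86 and 1.51 (adjusted p 0.0369, 0.0391 and 0.0492). Other members differed widely between the DKO J2 libraries. Rpl12 was at 81.2 and 80.1 CPM in control J2 and at 19.4 and 143 CPM in DKO J2, so its DKO values lay on both sides of the controls. Rpl10a was at 282 and 296 CPM in control and 108 and 375 CPM in DKO in the same way. Over the 82 genes the median absolute log2 difference between replicates was 0.57 in DKO J2. It was 0.45 in DKO input and 0.30 in DKO K1, against 0.08 to 0.10 in the control groups. The calls rest on this spread, and they did not hold without control replicate 1 or 2. With 1 animal left out the median ran from -0.92 to -0.435, beside -0.10 to 0.09 over all genes. The number of calls changed widely with the animal left out, among these genes and among all genes alike.

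Pulldown against input asks which transcripts the antibodies retain. In control mice J2 held less of this family than input did. Of 82 genes 34 were lower in J2 and 3 higher, beside 14.6% lower and 15.2% higher (29.8% in either direction) among all 15923 genes tested, and the median was -0.85 beside -0.07 over all genes. With K1 the family was spread to both sides, with 15 higher and 22 lower, beside 19.7% and 20.1% (39.8% in either direction) of all 15908 genes, and a median of -0.01 beside 0.00. Without TMM factors, which moved the median of all genes in K1 against input to -0.23 and in J2 against input to -0.44, the K1 calls were 10 higher and 23 lower. The J2 calls did not hold without control replicate 1 or 2. With 1 animal left out the median ran from -0.98 to -0.79 for J2, beside -0.21 to -0.05 over all genes. For K1 it ran from -0.02 to 0.055, beside -0.04 to -0.006. The number of calls changed widely with the animal left out, over all genes too.

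Rpl3 and Rpl19 were among the genes higher in control J2. Rpl3 was at 755 and 781 CPM in J2 and 262 and 249 CPM in input (log2 1.59 ± 0.48, adjusted p 0.0372). Rpl19, which forms a bridge between the subunits, was at 65.3 and 81.9 CPM in J2 and 29.3 and 29.9 CPM in input (log2 1.32 ± 0.24, adjusted p 0.00643). In both the pulldown values lay above both inputs.

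With K1 in control mice Rpl5 stood highest, at 717 and 779 CPM beside 142 and 150.1 CPM in input (log2 2.27 ± 0.27, adjusted p 0.000318). Rpl9 followed with 346 and 353 CPM beside 101 and 110.0 CPM (log2 1.65 ± 0.26, adjusted p 0.00115). Rpl19, Rps23, Rps19bp1, Rpl3 and Rpsa were higher by 1.41, 1.28, 1.23, 1.06 and 0.99. Rps23 is a protein of the decoding centre, where it helps to keep translation accurate. Rpl11 was lower with J2 (log2 -0.73, adjusted p 0.0411) and higher with K1 (log2 0.62, adjusted p 0.0371). It was at 30.4 and 27.9 CPM in J2, 73.9 and 84.2 CPM in K1 and 50.6 and 46.4 CPM in the shared control inputs.

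At the other end stood Rps26, Rps27l, Rpl39, Rpl27, Rps15a and Rps27. Rps26 was at 15.2 and 14.9 CPM in control J2, 27.6 and 28.7 CPM in control K1 and 143 and 154 CPM in control input. Its log2 fold change was -3.30 ± 0.34 with J2 and -2.48 ± 0.25 with K1 (adjusted p 0.00188 and 0.000175). Rps27l was at 2.74 and 2.18 CPM in J2, 3.02 and 2.38 CPM in K1 and 17.6 and 21.3 CPM in input, so the gene that rose in DKO input was among the least retained. Rpl39, which lies in the peptide exit tunnel, was at 2.40 and 2.43 CPM in J2 and 5.67 and 4.77 CPM in K1 beside 20.8 and 23.2 CPM in input. Rpl27, Rps15a and Rps27 were lower by -3.20, -3.06 and -2.73 with J2 and -2.04, -2.31 and -1.85 with K1. Both antibodies are compared with the same inputs, so the 2 sets of values are not independent.

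Longer transcripts of this family were retained more than shorter ones. The 82 genes have a median transcript of 767.5 bases, against 2558 bases over all genes tested in input. In the shortest 28 genes (345 to 597 bases) the median log2 change was -1.44 with control J2 and -0.56 with control K1. In the middle 27 genes (612 to 899 bases) the medians were -0.95 and -0.06. In the longest 27 genes (914 to 5130 bases) they were -0.13 and 0.41. The Spearman rank correlation with length was 0.508 with J2 and 0.446 with K1 over the 82 genes, and 0.448 and 0.363 over all genes tested with a length, so length went with enrichment in the whole transcriptome too. Rps15a, whose listed principal transcript is the longest at 5130 bases, was among the least retained. Which of its transcripts these cells use was not tested. With the animal as a block and a correction for GC content and length, the median was -0.11 with control J2 and 0.62 with control K1. The calls were 12 higher and 14 lower with J2, and 47 higher and 6 lower with K1. The share of all genes called in that fit is not given here, so these counts have no background. With all animals kept, the median of all genes ran over the settings from -0.44 to 0.00 for control J2. For control K1 it ran from -0.23 to 0.07.

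**Figure D3:**
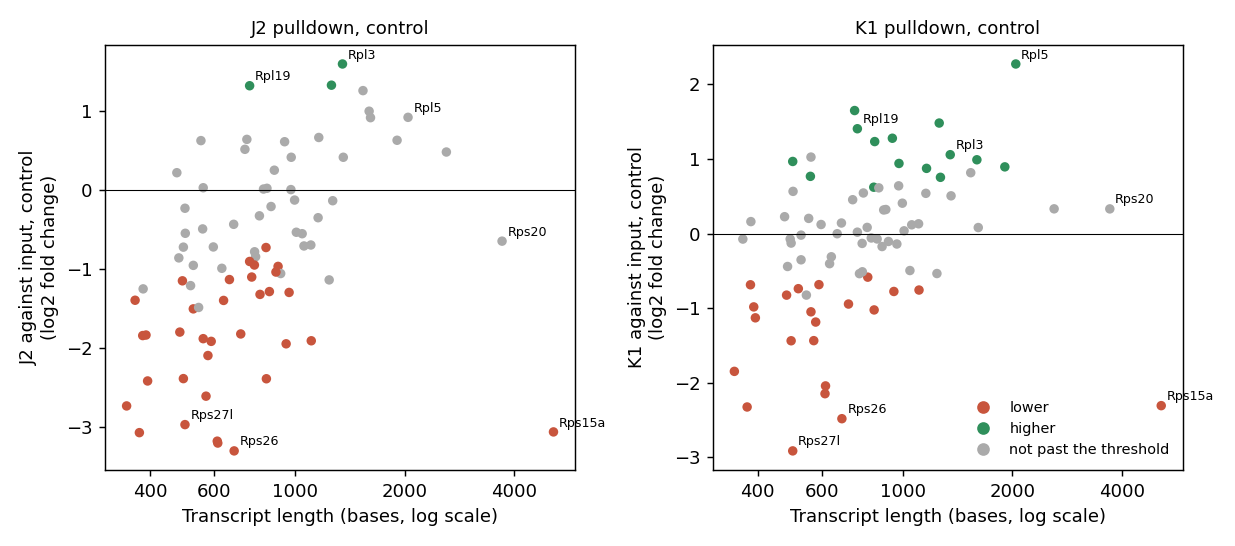
Log2 fold change of pulldown against input in control mice (y axis) for J2 (left) and K1 (right) against transcript length in bases on a log scale (x axis), 1 point per tested ribosomal protein gene. Green points were higher and orange points lower at an adjusted p below 0.05, and the shortest 28 genes had a median of -1.44 with J2 and -0.56 with K1.

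In DKO mice J2 again held less of the family than input did. Of 82 genes 29 were lower than input and 1 higher, beside 13.4% and 12.2% (25.7% in either direction) of all genes, with a median of -0.65 beside 0.10. Of the 34 genes lower in control J2 and the 29 lower in DKO J2, 23 were the same, which is 67.6% and 79.3%. Rpl19 was the gene called higher, at 93.2 and 79.1 CPM in DKO J2 beside 22.1 and 25.5 CPM in DKO input (log2 1.88 ± 0.24, adjusted p 0.00338). With 1 animal left out the median ran from -1.03 to -0.68, beside -0.19 to 0.10 over all genes. The number of calls fell or rose with the animal left out, over all genes too.

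With K1 in DKO mice 33 genes were lower than input and 2 higher, beside 21.0% and 14.6% (35.6% in either direction) of all genes, with a median of -0.56 beside -0.14. Rpl19 was at 117 and 98.1 CPM in DKO K1 (log2 2.09 ± 0.21, adjusted p 0.000166), and Rpl10a at 163 and 280.3 CPM beside 94.6 and 129 CPM in input (log2 0.90 ± 0.30, adjusted p 0.0416). Both stood above both inputs. Rpl39 had 4 and 2 counts in DKO K1 beside 157 and 217 in DKO input, too few for a fold to be given. Of the 22 genes lower in control K1, 18 were also lower in DKO K1, or 81.8% of the 22 and 54.5% of the 33. Of the 15 higher in control K1 only Rpl19 was also called higher in DKO K1. With 1 animal left out the median ran from -0.72 to -0.46, beside -0.29 to -0.15 over all genes. The number of calls fell or rose with the animal left out, over all genes too.

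The difference of enrichment between the genotypes was tested as an interaction. For K1 the median difference, DKO minus control, was -0.58, beside -0.20 over all genes. Below 0 lay 74 of the 82 genes (90.2%), beside 58.7% of all genes. By edgeR 5 genes were lower and none higher, beside 4.10% lower and 1.37% higher (5.47% in either direction) of all genes. At an unadjusted p below 0.05 there were 26 lower and 1 higher, and DESeq2 called 7 lower and none higher. With the animal as a block 12 were called lower, and in a single fit of all 12 libraries none was. The 5 calls did not hold without control replicate 1 or 2. With 1 animal left out the median ran from -0.75 to -0.45, beside -0.42 to -0.22 over all genes. The number of calls changed widely with the animal left out, over all genes too.

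The 5 genes were Rpl5, Rpl29, Rpl9, Rplp0 and Rpl10. All are of the large subunit, which gave 48 of the tested genes, beside 34 of the small one. Whether the subunits differ was not tested. For Rpl5 the same-animal difference of log2 CPM between K1 and input was 2.34 and 2.37 in the control mice but 0.77 and 0.22 in the DKO mice, with an interaction of -1.89 ± 0.37 (adjusted p 0.0235). For Rpl29 it was -0.78 and -0.95 in the control mice but -2.50 and -2.82 in the DKO mice (-1.83 ± 0.36, adjusted p 0.0236). For Rpl9 it was 1.78 and 1.68 in the control mice but 0.53 and -0.36 in the DKO mice (-1.68 ± 0.37, adjusted p 0.0332). In these 3 genes the genotypes did not overlap. Rplp0 went from 0.60 and 0.58 to -0.56 and -1.26 (-1.50 ± 0.38, adjusted p 0.0471), from above input in both control animals to below it in both DKO animals. Rpl10, which joins the large subunit last, went from 0.19 and 0.14 to -1.33 and -1.23 (-1.44 ± 0.35, adjusted p 0.0409) in the same way.

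For J2 the difference of enrichment had no called member by edgeR, beside 1.94% lower and 0.772% higher (2.71% in either direction) of all genes. Its median was 0.03, with 41 genes on either side of 0. At an unadjusted p below 0.05 there were 9 lower and 1 higher, and DESeq2 called 5 lower. Rplp0 was at -1.88 ± 0.49 and Rpl10 at -1.50 ± 0.39 (adjusted p 0.0744 and 0.0743), and Rpl5 and Rpl9 at -0.84 ± 0.47 and -1.24 ± 0.44 (adjusted p 0.297 and 0.132). With 1 animal left out the median ran from -0.10 to 0.04, beside -0.14 to -0.005 over all genes. The number of calls rose in some of these fits, over all genes too. Whether the genotype difference itself differs between J2 and K1 was not tested.

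**Figure D4:**
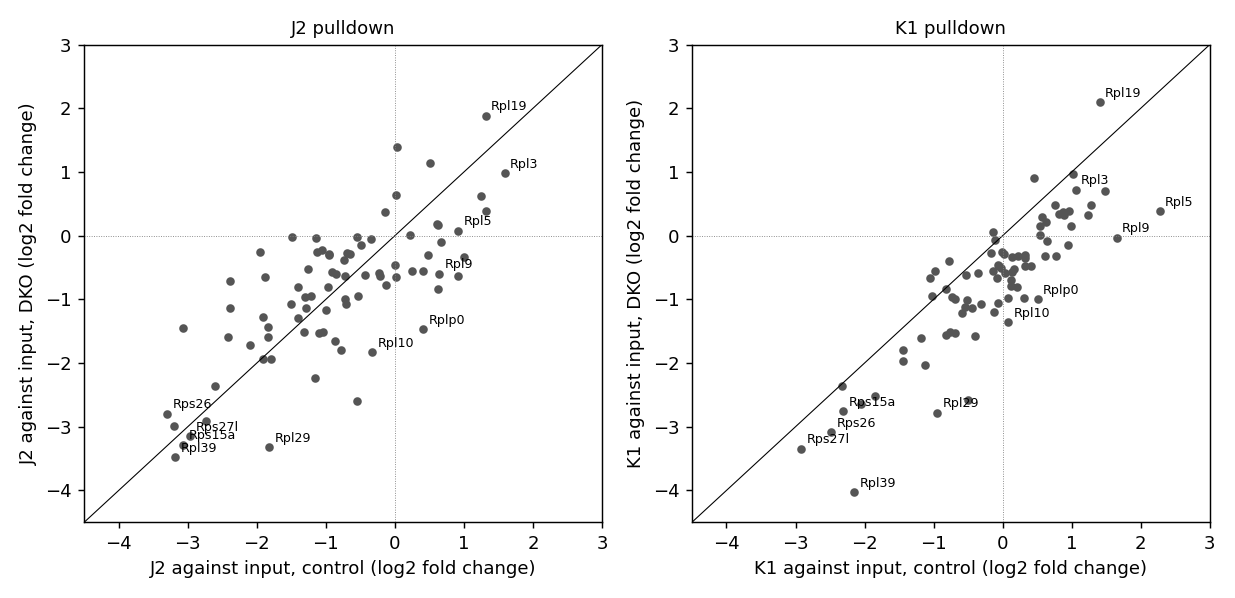
Log2 fold change of pulldown against input in DKO mice (y axis) against that in control mice (x axis) for J2 (left) and K1 (right), 1 point per ribosomal protein gene, with the line of equal values. With K1 most points, 74 of 82, lie below the line, beside 58.7% of all genes tested. Rpl5, Rpl9, Rplp0, Rpl10 and Rpl29 are among these 74, and with J2 the points lie on both sides.

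Several measures moved with the DKO pulldown results. Reads aligned to several places were more frequent in the DKO pulldowns, as given above. In the K1 difference the 8 genes with no near-identical copy had a median of -0.56 and the 58 covered over more than 50% one of -0.59. The 5 called genes are all covered over more than 50%. Long nuclear RNAs summed to 298 to 379 CPM in control K1 and 2212 to 5386 CPM in DKO K1, and 4 of 5 rose there. Markers of stroma, vessel and muscle summed to 3.82 to 41.7 CPM in control K1 and 80.9 to 208 CPM in DKO K1. In J2 the nuclear RNAs summed to 1034 to 1039 CPM in control and 3572 to 8982 CPM in DKO. Their part in the ribosomal protein values was not tested.

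Of 4 lists of the translation machinery, the cytosolic ribosomal proteins had the lowest and the ribosome biogenesis genes the highest median DKO change in K1. In K1 the 76 tested mitochondrial ribosomal protein genes had a median DKO change of -0.25, with 3 lower (3.95%) and 2 higher (2.63%), beside 13.9% and 13.1% of all genes. The translation factors had one of -0.63, with 6 of 21 lower (28.6%). Ribosome biogenesis genes had a median of 0.61, with 6 of 29 higher (20.7%). Within J2 the order differed, with -0.75 for translation factors, -0.55 for cytosolic ribosomal proteins, 0.18 for mitochondrial ribosomal proteins and 1.02 for biogenesis genes. In the K1 difference of enrichment the medians were -0.16 for mitochondrial ribosomal proteins, -0.35 for translation factors and 0.25 for biogenesis genes, beside -0.58 for cytosolic ribosomal proteins. In the J2 difference they were 0.37, -0.36 and 1.05, beside 0.03. The contrast between the lists was not tested.

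**Figure D5:**
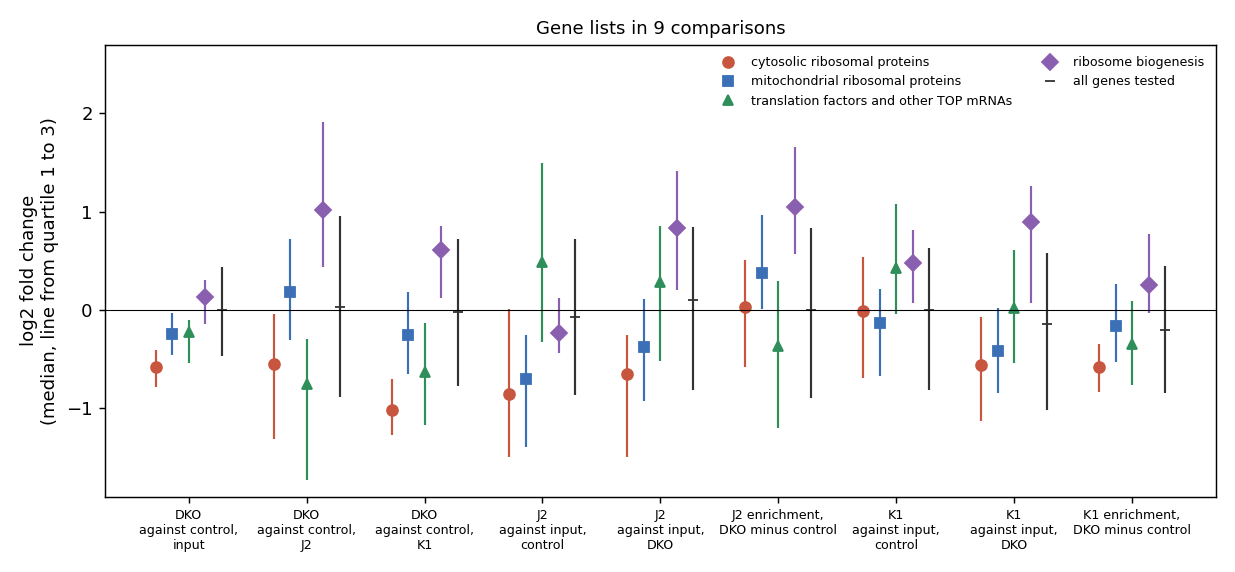
Median log2 fold change (symbols) with lines from the lower to the upper quartile (y axis) for 4 gene lists and all genes tested in the 9 comparisons (x axis). Cytosolic ribosomal proteins lie lowest of these lists in input with a median of -0.58 and in K1 with -1.02, while ribosome biogenesis genes lie at 0.13 and 0.61.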

How the data were processed

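Per the submitters' processing notes, reads were handled with STAR 2.7.10b, SAMtools 1.17, UMI-tools 1.1.4 and HTSeq 2.0.2. The authors deposited unnormalized integer counts for every gene, for which strand was ignored per the labels, with builds mm10 and GRCm38.p4 named in those notes. The annotation release is not given in the sources used here. Rows for unassigned reads stayed out of library sizes and tests. GENCODE M21 gave symbols and transcript lengths (48144 of 48526 rows matched).

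Tests over all genes used R 4.3.3 and the quasi-likelihood fit of edgeR 4.0.16 with TMM factors. Genes passed filterByExpr at a minimum of 10 counts, and p-values were adjusted by Benjamini-Hochberg, with 0.05 as the threshold, in separate fits of 4 libraries for genotype and of 8 for pulldown against input. Every adjusted p comes from these fits. CPM use TMM over 12 libraries, and log2 CPM a prior count of 2. DESeq2 1.42.0 was an alternative, and blastn 2.17.0+ found copies. The fitting script was tested on simulated data. Same-animal input and pulldown libraries deviated together (correlations of 0.244 to 0.339), so the animal was a block in an alternative fit. Between J2 and K1 of the same animals the correlation was 0.398 in control and 0.508 in DKO. Replicates were different libraries, with a chi-square per degree of freedom of 9.78 or more.

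Genes were named by role, by level, or by size of change. The last were the called members of largest change, up to 8 per direction. They needed a mean of at least 50 counts and groups that do not overlap, so lack of overlap adds no support for them. The members and lists were chosen with earlier results of these data known. With 2 animals per group, p-values rest on few degrees of freedom, and intervals between animals are wide. Some items are not reported here.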

Additional observations from a re-analysis of the deposited data

Results flagged for a closer look

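For 5 genes the K1 enrichment differed between the genotypes by a test of the difference itself (DKO minus control, log2). The differences were -1.89 for Rpl5, -1.83 for Rpl29, -1.68 for Rpl9, -1.50 for Rplp0 and -1.44 for Rpl10. The 5 are 6.10% of the 82 genes tested, near the 4.10% of all genes that were lower, and none passed in the single fit of 12 libraries or without control replicate 1 or 2. In each of the 5 both DKO animals lay below both control animals, which the naming by size of change requires and which adds no support.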

How the results depend on the processing

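No called value of a named gene changed direction. Counts of called members are given with medians of all tested members. Leaving out 1 animal at a time gave 38 to 77 calls in input (median -0.84 to -0.39), 0 to 54 within J2 (median -0.92 to -0.44), 10 to 69 within K1 (median -1.19 to -0.82), 0 to 72 for control J2 against input (median -0.98 to -0.79), 7 to 58 for DKO J2 (median -1.03 to -0.68), 0 to 44 for the J2 difference (median -0.10 to 0.037), 2 to 56 for control K1 (median -0.02 to 0.06), 18 to 46 for DKO K1 and 0 to 38 for the K1 difference (median -0.75 to -0.45). These fits leave an arm with 1 sample, which is assumed to vary like the others.

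The single fit of 12 libraries called 3 in input, 31 within J2, 24 for control K1, 2 in the J2 difference and 0 in the K1 difference, with a K1 median of -1.22. Without the low-count filter there were 15 within J2 and 4 in the J2 difference, and the medians were -1.22 within K1, -0.75 for control J2, -1.03 for DKO J2 and -0.48 for the J2 difference. DESeq2 called 15 within J2 and 5 in the J2 difference, with medians of -0.13 for control K1 and -0.41 for the K1 difference. Without TMM factors 1 gene passed in the J2 difference, and the medians were -1.38 within K1, -1.23 for control J2, 0.11 for the J2 difference, -0.24 for control K1, -0.87 for DKO K1 and -0.69 for the K1 difference. DESeq2's size factors in edgeR gave 2 calls in the K1 difference (median -0.42) and a median of -0.13 for control K1. With the animal as a replicate block the K1 difference had 12 calls and the J2 difference a median of -0.083. In the comparisons of genotypes, whose animals share only a number, the block gave 64 calls in input, 7 within J2 and 39 within K1. The block with GC and length correction gave medians of -0.11 for control J2, -0.31 for the J2 difference, 0.62 for control K1 and -0.079 for DKO K1, 18 calls for DKO J2 and 15 in the K1 difference. Without mitochondrial genes in the total the share in control input was 1.47%.

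Over all genes, calls ranged from 1675 to 6462 in input (5421 as reported), 1376 to 5993 within J2 (1609), 0 to 2453 in the J2 difference (432) and 59 to 1912 in the K1 difference (870), replicates left out aside. Each call of a named gene was checked once per setting, so 1 call can count several times. Under such settings 28 of these checks came out weaker and 534 the same. A larger part came out weaker when an animal was left out, and the causes were not tested. DKO pulldowns had the lowest depth, which limits low genes there. TMM factors computed without the family kept every count within 1.5 times.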
